A study of Mus musculus with 11 samples.

Results

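Tnip1 (TNFAIP3 interacting protein 1) and 9 genes of the NF-kB system around it were followed through whole mouse aorta: Tnip2, Tnfaip3, Nfkbia, Nfkbie, Nfkb1, Nfkb2, Rela, Relb and Ikbkb. The genes were picked by symbol, and each of the 10 was found among 27179 genes with a read count in 11 libraries and had enough counts to be tested with 14303 genes. Tnip1 was put forward on its level in the knockout libraries, which made it, after the deleted gene Mpst, the gene with the second smallest p in the authors' deposited table of KO_HFD_LNAME against WT_HFD_LNAME. Its values in comparisons with the knockout group are therefore a description and carry no test here. The other 9 were named for their part in the same pathway, with results of these data already known.

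The 4 WT_CD libraries came from wild-type C57BL6/J mice on a chow diet with 10% of calories from fat for 15 weeks. The 4 WT_HFD_LNAME libraries came from wild-type mice put at 6 to 7 weeks of age on a high-fat diet with 45% of calories from fat for 15 weeks, with L-NAME, an inhibitor of nitric oxide synthases, in 5 further weeks. The 3 KO_HFD_LNAME libraries came from Mpst knockout mice treated in that way; Mpst encodes a sulfurtransferase that makes hydrogen sulfide. Arch, thoracic and abdominal aorta went into each sample, freed of perivascular fat. The series has no Mpst knockout on chow, so that genotype was compared under treatment alone, and the labels do not say that libraries came from separate mice or that each is 1 mouse. The p-values thus measure the spread between these libraries.

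NF-kB factors are dimers of Rel proteins that wait in the cytoplasm, held there by I-kappa-B inhibitors. Signals from receptors for TNF, interleukin-1 and microbial products build ubiquitin chains on which the I-kappa-B kinase complex is activated; the kinase marks the inhibitor for destruction, and the freed dimer turns on genes of inflammation, adhesion and survival. Several of those genes encode brakes, among them I-kappa-B alpha, the ubiquitin-editing enzyme A20 (the product of Tnfaip3) and ABIN-1 (the product of Tnip1), which binds ubiquitin chains and A20. In arteries the pathway is best known for the adhesion molecules and chemokines by which endothelium recruits leukocytes.

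The promoters of the brakes are shown because this feedback is written in their DNA as kappa-B sites, to which Rel dimers bind. RefSeq promoter windows in GRCm38.p6, from 250 bases before to 50 after a start site, were at hand for 7 of the 10 genes, and were searched on both strands for the 10-base kappa-B consensus, overlapping matches being merged. Of those 7 genes, 5 had a match in at least 1 window (Tnip1, Tnfaip3, Nfkbia, Nfkbie and Nfkb2), and Rela and Tnip2 had none. Across all 32851 windows 4.51% held a match, and 6.50% of the tested genes with a window had one. The 250 bases before the start of these 5 genes follow, 5′ to 3′ on the strand of the gene, with the matches in capitals; they cover chr11:54962941-54963190 (minus strand) for Tnip1, chr10:19015411-19015660 (minus) for Tnfaip3, chr12:55492648-55492897 (minus) for Nfkbia, chr17:45555450-45555699 (plus) for Nfkbie and chr19:46304487-46304736 (plus) for the first of 3 starts of Nfkb2.
Tnip1: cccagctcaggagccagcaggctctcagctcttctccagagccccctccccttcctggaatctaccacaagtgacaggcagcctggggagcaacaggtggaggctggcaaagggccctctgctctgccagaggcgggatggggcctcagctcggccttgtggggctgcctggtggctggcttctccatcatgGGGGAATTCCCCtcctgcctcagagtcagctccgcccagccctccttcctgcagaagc
Tnfaip3: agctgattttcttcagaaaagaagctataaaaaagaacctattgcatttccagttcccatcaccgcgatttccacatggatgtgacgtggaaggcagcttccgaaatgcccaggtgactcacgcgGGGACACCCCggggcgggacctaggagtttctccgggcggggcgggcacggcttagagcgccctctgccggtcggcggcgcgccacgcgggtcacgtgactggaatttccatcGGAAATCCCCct
Nfkbia: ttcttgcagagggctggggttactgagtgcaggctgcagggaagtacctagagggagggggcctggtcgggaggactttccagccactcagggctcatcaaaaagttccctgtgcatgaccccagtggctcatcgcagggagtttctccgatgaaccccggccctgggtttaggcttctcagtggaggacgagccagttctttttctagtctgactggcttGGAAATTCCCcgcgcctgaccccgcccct
Nfkbie: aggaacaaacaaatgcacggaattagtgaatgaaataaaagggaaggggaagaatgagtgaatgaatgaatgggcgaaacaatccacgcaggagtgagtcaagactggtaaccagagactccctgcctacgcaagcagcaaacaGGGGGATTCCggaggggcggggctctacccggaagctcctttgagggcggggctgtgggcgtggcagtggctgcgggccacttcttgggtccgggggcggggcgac
Nfkb2: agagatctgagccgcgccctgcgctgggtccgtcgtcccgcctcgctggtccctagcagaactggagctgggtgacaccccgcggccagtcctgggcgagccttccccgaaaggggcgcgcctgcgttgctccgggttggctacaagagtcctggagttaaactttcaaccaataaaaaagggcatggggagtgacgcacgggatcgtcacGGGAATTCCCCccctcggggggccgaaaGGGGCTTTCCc
The match of Tnip1 begins 58 bases before its start and is a run of 12 bases, a palindrome in which matches on both strands overlap. Nfkbia has its match 29 and Nfkbie 106 bases before the start. Tnfaip3 has one at 125 and one at 12 bases before the start shown, and none at its other start. A match describes letters of the reference genome and not binding in these aortas, which was not measured.

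**Figure D1:**
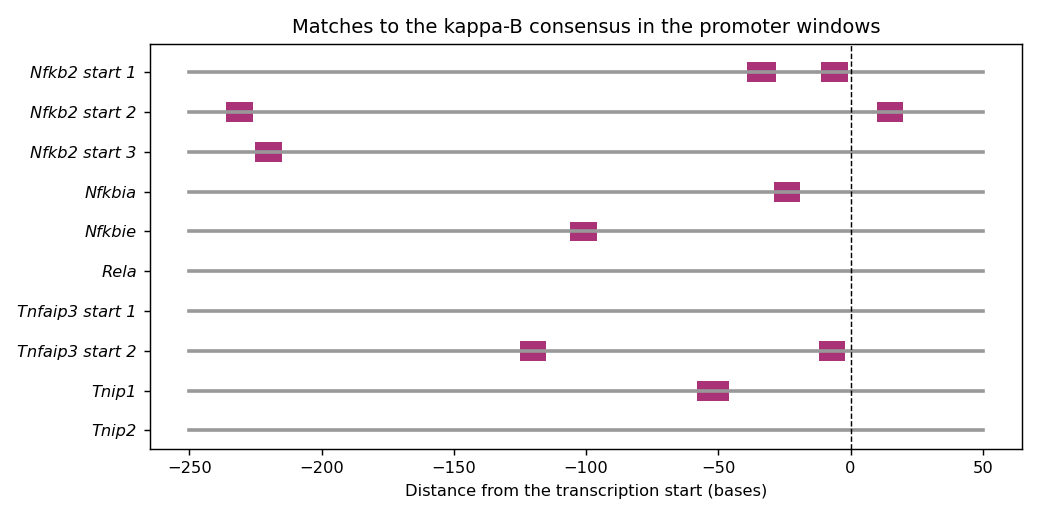
Position of matches to the kappa-B consensus (purple boxes) along the promoter windows of 7 genes, in bases from the transcription start (dashed line); each grey line is 1 window. Matches lie in windows of Tnip1, Tnfaip3, Nfkbia, Nfkbie and Nfkb2, and none in those of Rela and Tnip2.

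Library totals ran from 8665968 to 15340697 counts, and 3 counts stood for 0.170 to 0.358 CPM (read counts relative to the TMM-scaled library size). Mpst had 3 to 5 counts per knockout library against 265 to 532 per wild-type library, as its labels require. WT_CD libraries 1 and 2 held 10.1% and 17.4% of their counts in the ribosomal precursor Rn45s, against at most 2.98% in any other library. WT_HFD_LNAME libraries 3 and 4 summed to 676 and 1835 CPM of cardiac muscle markers against at most 138 elsewhere. Markers of smooth muscle, the main cell of the aortic wall, summed to 14298 CPM or more in every library.

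Tnip1 stood about 2-fold higher in the knockout aortas than in either wild-type group, with a narrow spread. Its gene (Entrez 57783) lies on the minus strand of chromosome 11, 54910787 to 54962956 in GRCm38.p6, and Mpst is on chromosome 15. The chow libraries 1 to 4 held 18.3, 17.3, 22.9 and 19.7 CPM of Tnip1. In treated wild-type aorta, libraries 1 to 4 held 20.3, 21.6, 22.4 and 25.4 CPM, and the knockout libraries 1 to 3 held 49.4, 44.6 and 48.9 CPM. The wild-type groups overlap, and each knockout library lies well above all 8 wild-type ones. In means this is 19.6 ± 2.47 (SD, n = 4), 22.4 ± 2.15 (n = 4) and 47.7 ± 2.64 CPM (n = 3), from 153 to 788 counts per library.

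The knockout level of Tnip1 was 2.12-fold that of treated wild-type aorta (log2 fold change 1.08, SE 0.12) and 2.43-fold that of chow aorta (1.28, SE 0.12). Leaving out single libraries or changing the fit moved the first value between 1.03 and 1.18. In the authors' deposited table the difference from treated wild-type aorta is 0.9988 on the log2 scale. Diet with L-NAME in wild-type mice did not pass the test for Tnip1 (log2 fold change 0.20, SE 0.11, edgeR adjusted p = 0.447); that comparison shares its treated libraries with the knockout one.

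Neither gene beside Tnip1 was called between knockout and treated wild-type aorta, where 0.0140% of tested genes were. Gpx3, which encodes a secreted glutathione peroxidase, lies on the opposite strand with its end 399 bases from the end of Tnip1. Gpx3 had 462 to 1289 CPM in treated wild-type libraries and 301 to 474 CPM in knockout ones, and was not called (log2 fold change -1.34, edgeR adjusted p = 0.950). On the other side Anxa6, an annexin gene, had 307 to 348 CPM in treated wild-type and 321 to 341 CPM in knockout libraries (log2 fold change 0.05, edgeR adjusted p = 0.965). The pseudogene Gm12230, inside Tnip1, is not among the genes with a read count and could not be analysed.

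Lymphocyte transcripts were also more abundant in the knockout libraries. The 10 markers of T and NK cells summed to 4.05 to 6.32 CPM in treated wild-type libraries and to 64.6, 14.4 and 16.6 CPM in knockout libraries 1, 2 and 3, without overlap. All 9 tested markers of that list lay above 0 in KO_HFD_LNAME against WT_HFD_LNAME, at a median log2 value of 3.05. Over all tested genes 47.7% lay above 0, at a median of -0.01. Of the 9 markers edgeR called 0, where it called 0.0140% of tested genes, and 9 had an unadjusted p under 0.05, where 5.12% of tested genes had one. DESeq2 called Cd8a, Cd8b1 and Lck, where it called 0.157% of its genes. Cd3e, Cd8a, Cd8b1 and Nkg7 were at 0 in at least 1 library. In knockout libraries 1, 2 and 3 Tnip1 was at 49.4, 44.6 and 48.9 CPM. The T and NK sum of each of them lay above that of every wild-type library (2.27 to 6.32 CPM). Without knockout library 1 the log2 fold change of Tnip1 was 1.05. The part of these cells in the level of Tnip1 was not tested, and in RNA of whole tissue more cells of a type and more RNA per cell cannot be told apart.

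**Figure D2:**
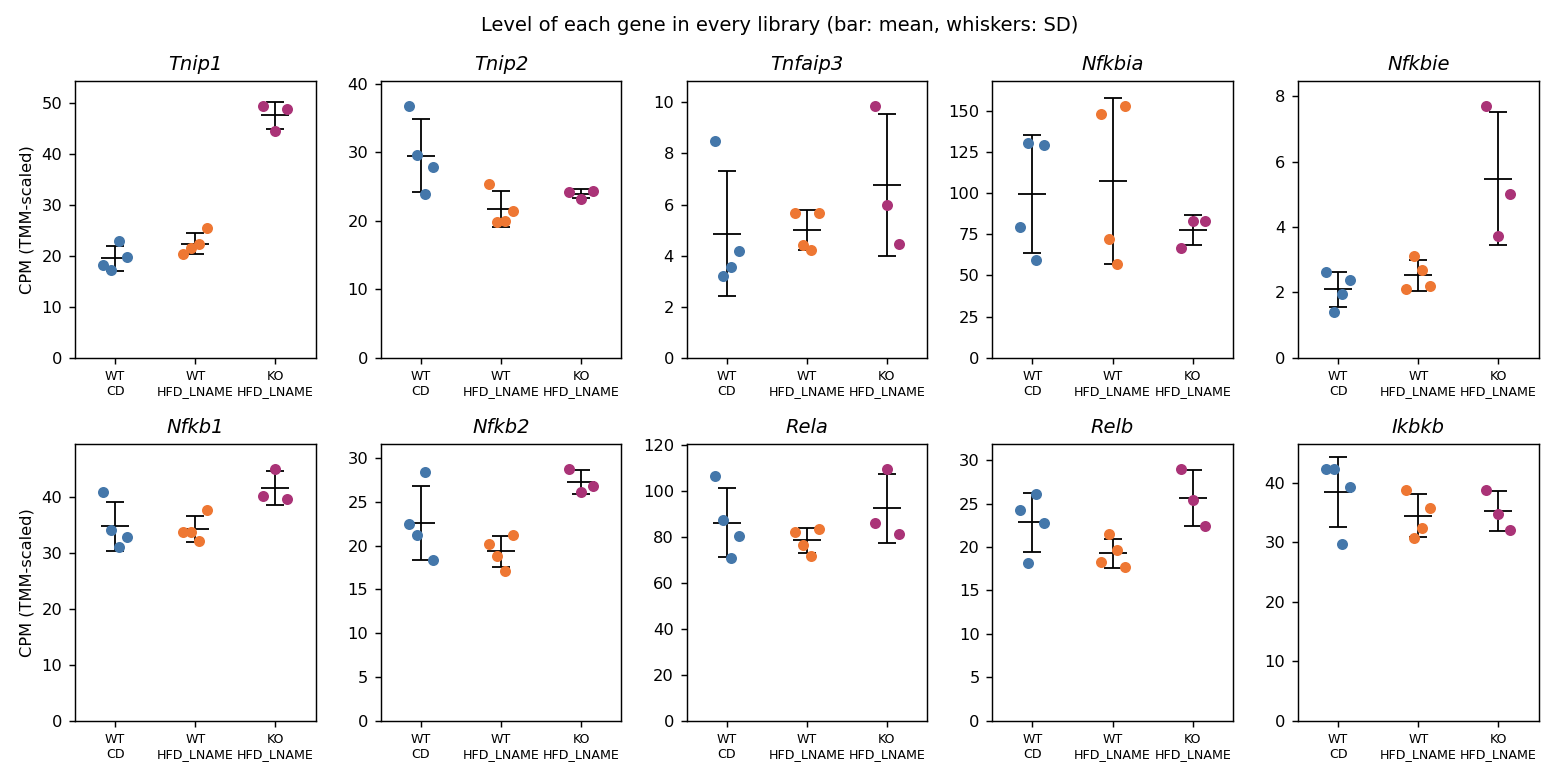
CPM of each of the 10 genes in every library (points), with the group mean (bar) and SD (whiskers); each panel has its own vertical axis from 0. Knockout libraries hold 44.6 to 49.4 CPM of Tnip1, wild-type libraries 17.3 to 25.4 CPM.

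No difference of Tnip2 or of Tnfaip3 passed the test. Tnip2 encodes ABIN-2, a relative of ABIN-1 that also binds ubiquitin and A20. Its level was 36.7, 29.6, 23.9 and 27.9 CPM in chow libraries 1 to 4, then 25.4, 19.9, 20.1 and 21.5 CPM in treated wild-type libraries and 24.2, 23.2 and 24.4 CPM in knockout ones. The chow libraries were mostly the highest, but the groups overlap. The difference of treated from chow wild-type aorta was -0.44 on the log2 scale (SE 0.14, edgeR adjusted p = 0.140), and that of knockout from treated wild-type aorta 0.14 (SE 0.15, edgeR adjusted p = 0.950). Against chow aorta the knockout value was -0.30 (SE 0.15, edgeR adjusted p = 0.423).

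Tnfaip3, the gene of A20, was scarce and uneven. Chow libraries 1 to 4 held 8.47, 3.20, 3.56 and 4.2 CPM and treated wild-type libraries 5.67, 4.42, 4.21 and 5.68 CPM of Tnfaip3, and knockout libraries 1 to 3 held 9.85, 6.0 and 4.47 CPM. One chow and 1 knockout library were high, and all groups overlap. Its knockout level was 1.35-fold that of treated wild-type aorta (log2 fold change 0.43, SE 0.36, edgeR adjusted p = 0.950), and without knockout library 1 the log2 value was 0.05. In that library B cell and plasma cell markers summed to 649 CPM, against 159 and 170 in the other knockout libraries. Its T and NK markers summed to 64.6 CPM, against 14.4 and 16.6. Treated wild-type library 3 had 429 CPM of B cell and plasma cell markers, with Tnfaip3 at 4.21 CPM, the lowest of its group. In the high chow library immediate early genes, which handling of tissue can induce, summed to 2052 CPM, against 447 to 746 in the rest of the group. The part of any of these in the level of Tnfaip3 was not tested.

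Of the I-kappa-B genes, Nfkbie was higher in each knockout library and Nfkbia was not. Nfkbie encodes I-kappa-B epsilon, an inhibitor that is itself made in response to NF-kB. It had 2.62, 1.40, 1.97 and 2.38 CPM in chow libraries 1 to 4 and 2.106, 3.10, 2.70 and 2.19 CPM in treated wild-type libraries. The knockout libraries 1 to 3 held 7.70, 3.74 and 5.02 CPM of Nfkbie, all above every wild-type library. Of tested genes, 4.41% were higher in every knockout library than in every treated wild-type one, and 7.86% than in every chow one. The knockout mean of Nfkbie was 2.17-fold that of treated wild-type aorta (log2 fold change 1.12, SE 0.30). This did not pass the test over all genes (edgeR adjusted p = 0.726). Against chow aorta the log2 fold change was 1.38 (SE 0.30, edgeR adjusted p = 0.0887), and DESeq2 called it there (adjusted p = 0.00479). These values rest on 14 to 100 counts per library. Nfkbie was highest in the knockout library with the most T and NK transcripts, and without that library its log2 difference from treated wild-type aorta was 0.78. The part of those cells was not tested.

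Nfkbia encodes I-kappa-B alpha, the main early inhibitor, which is quickly destroyed and remade. Chow libraries 1 to 4 held 79.2, 130, 59.5 and 129 CPM, and treated wild-type libraries 148, 71.8, 56.6 and 153 CPM. Knockout libraries 1 to 3 held 66.9, 82.8 and 82.8 CPM, inside the range of both wild-type groups. The spread within the wild-type groups exceeded every difference between group means, and neither main comparison passed the test. Treated against chow wild-type aorta gave a log2 fold change of 0.11 (SE 0.35, edgeR adjusted p = 0.923), and knockout against treated wild-type aorta gave -0.47 (SE 0.38, edgeR adjusted p = 0.950). The 3 libraries with most adipocyte transcripts, which summed to 10477 CPM or more of 7 markers, had Nfkbia at 56.6 to 71.8 CPM; in the other 8 libraries these markers summed to at most 5949 CPM and Nfkbia ran from 66.9 to 153 CPM. The 3 adipocyte-rich libraries also had the lowest sums of smooth muscle markers, at 14298 to 18133 CPM, against 22054 CPM or more in the other 8. The part of fat tissue or of smooth muscle in the level of Nfkbia was not tested.

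**Figure D3:**
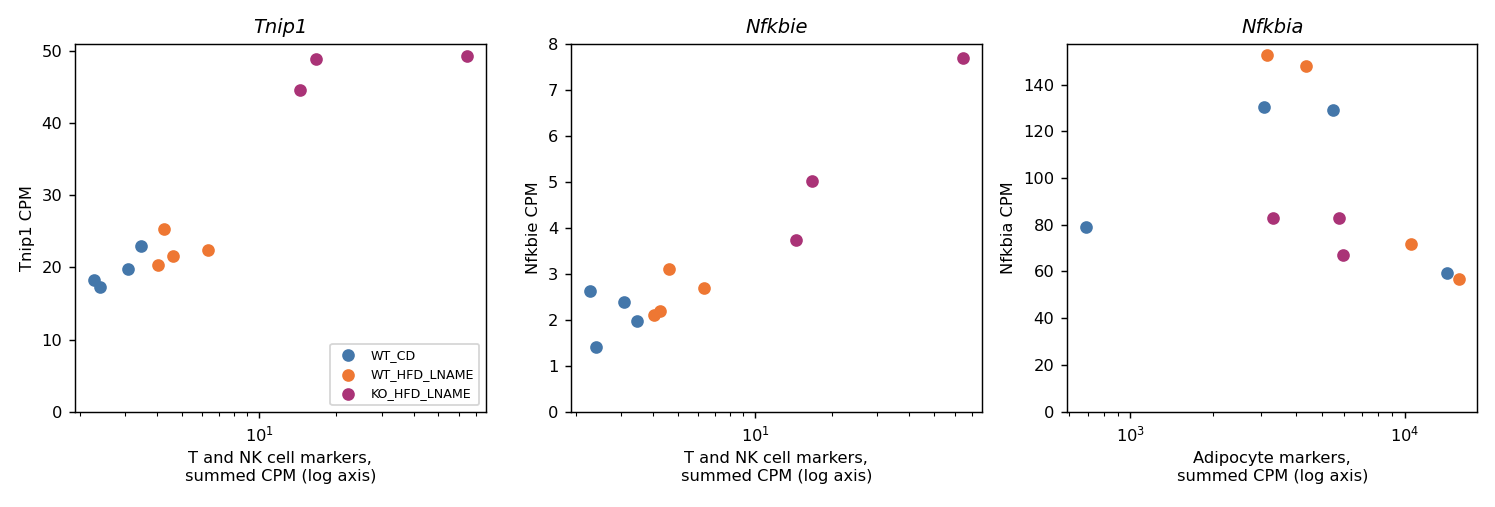
Tnip1 and Nfkbie CPM against the summed CPM of 10 T and NK cell markers, and Nfkbia CPM against that of 7 adipocyte markers; each point is 1 library, the horizontal axes are logarithmic. Knockout libraries have both more T and NK transcripts (14.4 to 64.6 CPM) and more Tnip1, and the 3 libraries richest in adipocyte transcripts have Nfkbia at or under 71.8 CPM.

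The subunits of the alternative NF-kB dimer, p100/p52 and RelB, were higher in the knockout than in the treated wild-type libraries without reaching the threshold. Nfkb2, which encodes p100 and its product p52, had 20.2, 18.8, 17.1 and 21.2 CPM in treated wild-type libraries 1 to 4 and 28.8, 26.2 and 26.8 CPM in knockout libraries. Chow libraries held 22.4, 21.2, 28.5 and 18.4 CPM of Nfkb2, a range that reached into the knockout values. Relb, the gene of RelB, had 18.3, 21.5, 19.6 and 17.7 CPM in treated wild-type and 29.0, 25.5 and 22.5 CPM in knockout libraries, with 18.2 to 26.1 CPM on chow. For both genes the treated groups do not overlap, where 4.41% of tested genes were higher in every knockout library. The chow group overlaps with each treated group. The knockout levels were 1.41-fold (log2 fold change 0.49, SE 0.14, edgeR adjusted p = 0.762) and 1.33-fold (0.41, SE 0.14, edgeR adjusted p = 0.815) those of treated wild-type aorta. The antisense gene 4833438C02Rik and the end of Psd overlap Nfkb2, and had at most 7.12 and 9.62 CPM; whether counting used strand is not given in the sources used here.

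Of the classical subunits, Nfkb1 (p105 and its product p50) was 32.2 to 37.6 CPM in treated wild-type and 39.6 to 45.0 CPM in knockout libraries, with 31.1 to 40.9 CPM on chow. The knockout and treated wild-type ranges do not meet, where 4.41% of tested genes were higher in every knockout library. The difference of Nfkb1 was small (log2 fold change 0.28, SE 0.12, edgeR adjusted p = 0.939). Rela, the gene of the transactivating subunit p65, ran from 70.7 to 106 CPM on chow, 71.4 to 83.3 CPM in treated wild-type and 81.3 to 109 CPM in knockout libraries, and was not called (0.24, SE 0.15, edgeR adjusted p = 0.950). Ikbkb, which encodes the catalytic I-kappa-B kinase beta, had the smallest difference between knockout and treated wild-type aorta (0.03, SE 0.14, edgeR adjusted p = 0.983), with 29.8 to 42.4 CPM over all 11 libraries. Between treated and chow wild-type aorta the log2 fold changes were -0.02 for Nfkb1, -0.14 for Rela and -0.16 for Ikbkb (edgeR adjusted p = 0.969, 0.716 and 0.629). Nfkb1 was 40.9, 34.1, 31.1 and 32.8 CPM in chow libraries 1 to 4, and 40.1, 45.0 and 39.6 CPM in knockout libraries 1 to 3, so that 1 chow library reached the knockout range.

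Per kilobase of exon, the order of the 10 genes on chow ran from Nfkbia at 61.8 ± 22.2 CPM per kilobase (SD, n = 4) through Rela at 28.0 ± 4.89 and Tnip2 at 11.002 ± 2.001 to Nfkbie at 0.687 ± 0.176 and Tnfaip3 at 0.672 ± 0.338. Relb, Tnip1 and Nfkb2 overlap in the middle, at 5.88, 5.53 and 4.94 CPM per kilobase, as do Nfkbie and Tnfaip3 at the bottom. Tnip1 lay between Relb and Nfkb2 on chow, just above Relb in treated wild-type aorta at 6.34 ± 0.608, and between Rela and Tnip2 in knockout aorta at 13.5 ± 0.746 CPM per kilobase (n = 3). In every wild-type library Tnip2 exceeded Tnip1 per length, and in every knockout library Tnip1 exceeded Tnip2. Lengths are unions of all annotated exons, which understates genes such as Ikbkb with long rare exons.

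**Figure D4:**
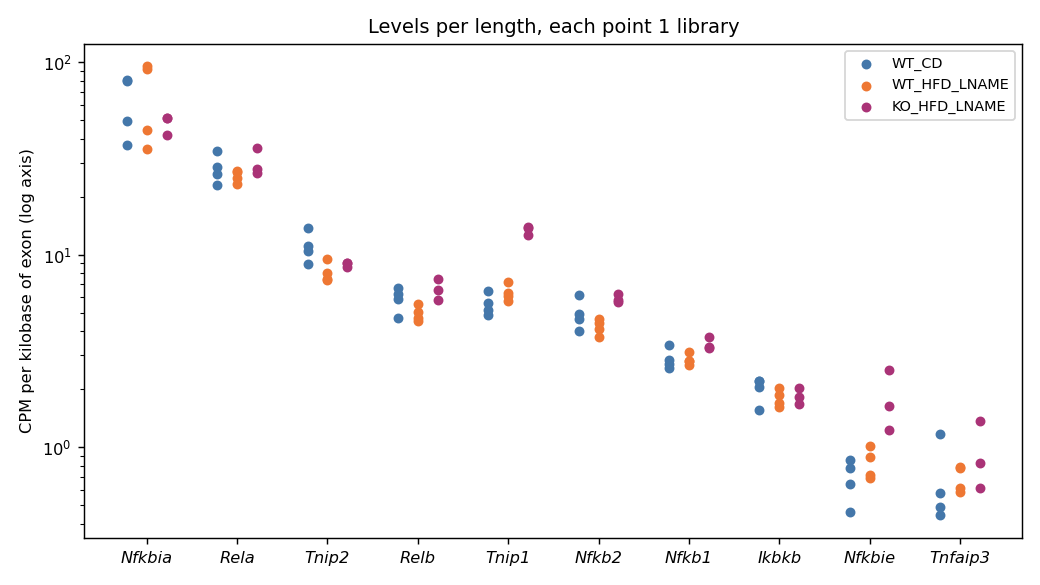
CPM per kilobase of annotated exon (log axis) for the 10 genes, ordered by their chow mean; each point is 1 library, coloured by group. Tnip1 moves from beside Relb and Nfkb2 on chow to above Tnip2 in the knockout libraries, at 13.5 CPM per kilobase.

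Between treated and chow wild-type aorta edgeR called 0 of the 10 genes, where 1.48% of all tested genes were called. At an unadjusted p under 0.05 it was 1 gene (Tnip2), where 15.1% of tested genes were. DESeq2 and the authors' deposited table also called 0 of the 10, where they called 5.39% and 3.84% of their genes. The 10 log2 fold changes ran from -0.44 to 0.27, with a median of -0.08 against -0.03 over all tested genes. In 0 of the 10 genes did these groups separate without overlap, where 5.31% of tested genes were higher and 2.54% lower in every treated library.

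Between knockout and treated wild-type aorta, the comparison by which Tnip1 came to be chosen, 0.0140% of tested genes were called. Of the other 9 genes edgeR called 0; 4 had an unadjusted p under 0.05 (Nfkbie, Nfkb2, Relb and Nfkb1), where 5.12% of tested genes had one. DESeq2 and the authors' deposited table called 0 of the 9, where they called 0.157% and 0.403% of their genes. Those 4 genes were higher in every knockout library than in every treated wild-type library, where 4.41% of tested genes were; 0 of the 9 were lower in every library, where 3.46% of tested genes were. Their log2 fold changes ran from 0.28 to 1.12, and 8 of the 9 lay above 0, with a median over the 9 of 0.28 against -0.01 over all tested genes. Nfkbia was the gene below 0. Nothing is read from these counts, since the genes were gathered around a result of the same comparison.

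Between knockout and chow wild-type aorta, which shares its libraries with both other comparisons, 0.315% of tested genes were called. Of the 9 genes other than Tnip1 edgeR called 0, with 2 at an unadjusted p under 0.05 (Nfkbie and Nfkb1), where 13.3% of tested genes had one. DESeq2 called Nfkbie, where it called 3.42% of its genes. The log2 fold change of Tnfaip3 was 0.49 (SE 0.36) and that of Nfkbia -0.36 (SE 0.38), with edgeR adjusted p = 0.638 and 0.753. Nfkbie alone of the 9 was higher in every knockout library, where 7.86% of tested genes were, and 0 were lower in every one, where 5.19% were. Nfkb2 and Relb were at 0.27 (SE 0.15) and 0.17 (SE 0.14) here (edgeR adjusted p = 0.481 and 0.691). Their differences of treated from chow wild-type aorta were -0.22 (SE 0.14) and -0.25 (SE 0.13), neither called (edgeR adjusted p = 0.476 and 0.418).

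**Figure D5:**
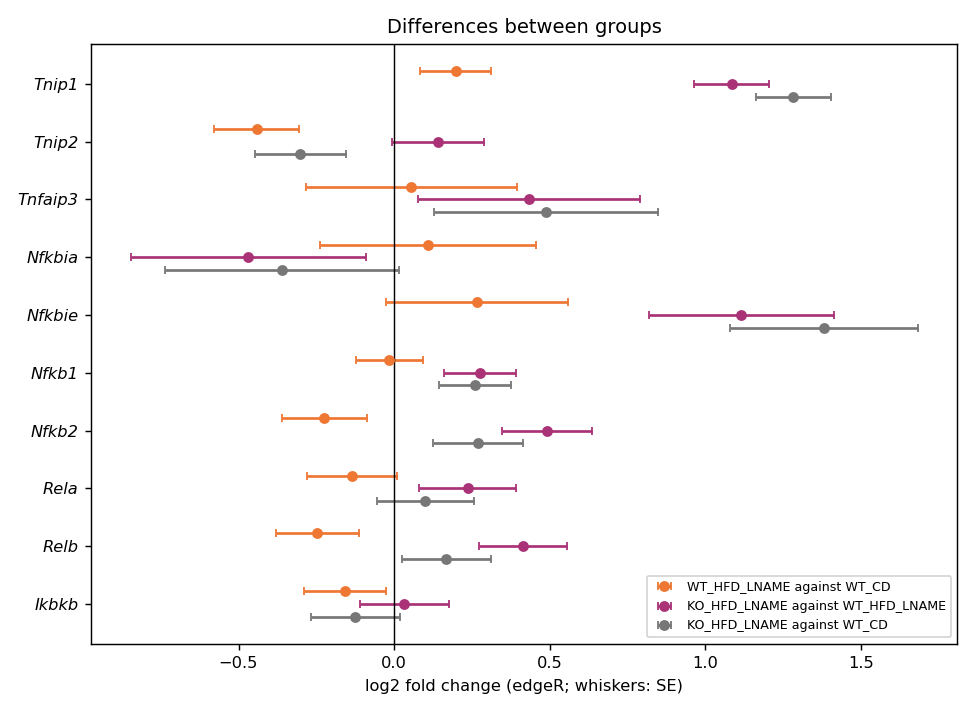
Log2 fold changes of the 10 genes in the 3 comparisons (edgeR; whiskers are SE). Tnip1 and Nfkbie stand farthest to the right in the knockout comparisons, at 1.08 and 1.12 against treated wild-type aorta, and the values for treated against chow wild-type aorta lie between -0.44 and 0.27.

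Other genes of the pathway stayed under the threshold between knockout and treated wild-type aorta, in 4 lists made with the 10 genes. Over all tested genes that comparison had 0.0140% called by edgeR, 5.12% with an unadjusted p under 0.05, 0.157% called by DESeq2 and a median log2 fold change of -0.01. The same shares were 1.48%, 15.1% and 5.39% between treated and chow wild-type aorta (median -0.03), and 0.315%, 13.3% and 3.42% between knockout and chow aorta (median -0.04). Of 12 tested further core genes, edgeR called 0 there (1 at an unadjusted p under 0.05, DESeq2 0), at a median log2 value of 0.09. Map3k14, which encodes the NF-kB-inducing kinase of the alternative pathway, had 4.26 CPM in treated wild-type and 6.58 CPM in knockout aorta (log2 fold change 0.62, edgeR adjusted p = 0.823). Nfkbid, an atypical nuclear I-kappa-B, was at 0.706 and 1.51 CPM (1.07, edgeR adjusted p = 0.950), and at 2.06 against chow aorta (edgeR adjusted p = 0.234). In the other comparisons the list also had 0 calls by edgeR and by DESeq2, with 1 unadjusted p under 0.05 in each. There Ikbke stood at -0.47 and Rel, the gene of c-Rel, at 0.85 for treated against chow wild-type aorta, and Bcl3, a co-activator of p50 and p52 dimers, at 1.07 for knockout against chow aorta (edgeR adjusted p = 0.313, 0.450 and 0.403).

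Of 16 genes of ubiquitin editing, which include cofactors of A20 and the linear ubiquitin ligase, edgeR called 0 in each of the 3 comparisons. In KO_HFD_LNAME against WT_HFD_LNAME they had 0 unadjusted p under 0.05 and 0 calls with DESeq2, a median of -0.02, and values from -0.17 to 0.26. The A20 cofactor Rnf11 was at 0.38 and Zranb1 at -0.36 in treated against chow wild-type aorta (edgeR adjusted p = 0.355 and 0.237; 1 unadjusted p under 0.05, DESeq2 0). Ube2v1, a partner in making lysine-63 ubiquitin chains, was at 0.26 in knockout against treated wild-type aorta and Zranb1 at 0.24 (edgeR adjusted p = 0.950 for each). Spata2 and Tnfaip1 were at 0.22 and -0.20 in knockout against chow aorta (edgeR adjusted p = 0.547 and 0.538; 0 unadjusted p under 0.05, DESeq2 0).

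Of 29 receptor and adaptor genes edgeR called 0 in each comparison, with 4 unadjusted p under 0.05 (5.12% over all tested genes) and 0 DESeq2 calls between knockout and treated wild-type aorta (median 0.13). Tnfrsf1b, the TNF receptor that leukocytes carry most, had 11.2 to 14.2 CPM in treated wild-type and 16.5 to 20.3 CPM in knockout libraries (log2 fold change 0.49, SE 0.14, edgeR adjusted p = 0.762). Against chow aorta it was at 0.62 (edgeR adjusted p = 0.0965) and was the 1 gene of the list that DESeq2 called, beside 5 unadjusted p under 0.05; Birc3 was at 0.37 there (edgeR adjusted p = 0.308). Tnfrsf12a, the receptor for TWEAK, was at 0.62 between knockout and treated wild-type aorta (edgeR adjusted p = 0.939). Il1rap and Tnfrsf1a were at 0.50 and 0.25 between treated and chow wild-type aorta (edgeR adjusted p = 0.223 and 0.409; 1 unadjusted p under 0.05, DESeq2 0).

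Among 25 tested inflammatory target genes, of 32 listed, Vcam1 was the 1 that edgeR called, in knockout against chow aorta. In that comparison 0.315% of all tested genes were called. Vcam1 encodes an endothelial adhesion molecule for leukocytes. It had 21.2, 34.5, 32.0 and 30.5 CPM on chow, 44.8, 51.9, 43.3 and 44.4 CPM in treated wild-type and 50.1, 60.2 and 64.7 CPM in knockout libraries. Every treated library of either genotype exceeded every chow library. Of tested genes, 5.31% were higher in every treated wild-type library than in every chow library, and 7.86% in every knockout library. Knockout against chow aorta gave a log2 fold change of 0.98 (SE 0.16, edgeR adjusted p = 0.0440), and the call was lost in 13 of 19 alternatives, among them without each knockout library (adjusted p = 0.0983 to 0.125), while the value stayed between 0.85 and 1.06. Treated against chow wild-type aorta gave 0.64 (edgeR adjusted p = 0.0613). Of the endothelial markers, 10 of 10 lay above 0 in both comparisons with chow. Of all tested genes, 46.1% did between treated and chow wild-type aorta and 44.3% between knockout and chow aorta. In the first edgeR called 1 marker (1.48% of all genes) and DESeq2 8 (5.39%), with 10 unadjusted p under 0.05 (15.1%). In the second these counts were 0, 4 and 9 (0.315%, 3.42% and 13.3% of all genes). The 10 endothelial markers summed to 233 to 573 CPM on chow, 707 to 1276 in treated wild-type and 743 to 911 CPM in knockout libraries. Between knockout and treated wild-type aorta 1 of 10 lay above 0 (median -0.11), where 47.7% of tested genes did. Vcam1 was at 0.34 there (edgeR adjusted p = 0.950). The part of endothelial cells in the level of Vcam1 was not tested.

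The target list had a median log2 fold change of 0.21 between knockout and treated wild-type aorta, where edgeR called 0 of its genes (4 unadjusted p under 0.05, DESeq2 0). Over all tested genes these shares were 0.0140%, 5.12% and 0.157%. Ccl5, a chemokine that T cells make, was at 2.51 (SE 0.79, edgeR adjusted p = 0.762), with 26.6 CPM in knockout library 1 and 2.38 and 2.41 CPM in the other knockout libraries, against 1.03 to 3.03 CPM in treated wild-type libraries. Cxcl10, an interferon-induced chemokine, was at 1.61 (edgeR adjusted p = 0.823), from 1.24 to 2.54 CPM in knockout libraries and 0.470 to 0.891 CPM in treated wild-type libraries. Between treated and chow wild-type aorta the list had a median of 0.42 with 0 edgeR calls and 7 of 25 unadjusted p under 0.05, where 15.1% of all tested genes had one at a median of -0.03. Plau, which encodes urokinase, was at 0.61 there (edgeR adjusted p = 0.0529). DESeq2 called Plau, Vcam1 and Nos2, where it called 5.39% of its genes. Against chow aorta the knockout libraries gave a median of 0.75 with 12 of 25 unadjusted p under 0.05, where 13.3% of all tested genes had one at a median of -0.04. DESeq2 added Cd83 and Cxcl10 there to those 3, where it called 3.42% of its genes.

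Markers of other cells were also set beside the 10 genes. Myeloid markers summed to 317 to 558 CPM in treated wild-type and 520 to 922 CPM in knockout libraries, with 12 of 12 above 0, a median of 0.58 and 0 calls by edgeR (chow libraries 332 to 698 CPM). B cell and plasma cell markers summed to 70.2 to 429 and 159 to 649 CPM, with 7 of 7 tested markers above 0. Mesothelial markers lay above 0 in 6 of 6, at a median of 1.30, and summed to 19.9, 32.6 and 175 CPM in knockout libraries 1 to 3 against 1.46 to 61.4 CPM in treated wild-type ones. Immediate early genes lay above 0 in 9 of 10 (median 0.47; 576 to 899 against 481 to 648 CPM) and erythroid markers in 5 of 5 (median 0.59; 1282 to 3656 against 1176 to 2330 CPM). Cardiac markers lay above 0 in 0 of 7 (median -4.49), with the 2 heart-rich libraries in the treated wild-type group. Adipocyte, endothelial, fibroblast and smooth muscle markers had medians of -0.47, -0.11, -0.08 and 0.09. In this comparison edgeR and DESeq2 called 0 genes of each of these lists, where they called 0.0140% and 0.157% of their genes. At an unadjusted p under 0.05 there were 5 cardiac, 2 myeloid, 1 fibroblast and 1 immediate early genes and 0 of the rest. Of all tested genes, 5.12% had an unadjusted p under 0.05 and 47.7% lay above 0. These values stand beside those of Tnip1, Nfkbie, Nfkb2 and Relb, and their part in them was not tested.

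The genes whose pattern was most like that of Tnip1, by Pearson correlation of log2(CPM + 0.5) over the 11 libraries, were Slc15a3 (r = 0.96, rho = 0.88), Kcnj14, 1700047G03Rik, B4galt5 and Rassf5, with r from 0.92 to 0.96. The libraries fall into knockout and wild-type in such genes, so the correlation restates that difference and has no p. Slc15a3, a lysosomal peptide transporter of immune cells, had 0.700 to 1.69 CPM in wild-type and 3.06 to 4.26 CPM in knockout libraries. B4galt5, a galactosyltransferase, had 10.9 to 13.3 and 16.4 to 18.3 CPM, and Rassf5, a regulator of lymphocyte adhesion, 2.10 to 3.58 and 4.53 to 6.85 CPM. Kcnj14 and 1700047G03Rik each had 0 to 8 counts in wild-type libraries, so their correlations rest on very few reads. Their knockout libraries held 14 to 25 and 17 to 50 counts. Most like Nfkbia were Fam124a, Rilpl1, Irf2bp2, Tent5b and Trp53inp1 (r from 0.93 to 0.97), which varied within the wild-type groups as Nfkbia did; Trp53inp1 had 91.3 and 91.2 CPM in chow libraries 2 and 4 and 100 and 106 CPM in treated wild-type libraries 1 and 4. Most like Tnfaip3 were Nek8, Mtbp, Tg, Kif21b and Mpzl1 (r from 0.88 to 0.93). All libraries entered each correlation, so that depth and tissue makeup are shared by the genes compared.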

How the data were processed

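RNA of 11 aorta libraries was sequenced. The deposited values are raw counts per gene. The tools named in the submitters' processing notes are Trimmomatic 0.39, HISAT2 2.2.1 (build GRCm38/mm10) and featureCounts 2.0.3. The authors also deposited, from DESeq2 (2.11.40.7), a mean normalised signal, log2 fold changes, their standard errors and Wald scores, and p-values.

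The counts were analysed with edgeR 4.0.16 in R 4.3.3: filterByExpr, TMM factors (0.814 to 1.15), 1 robust quasi-likelihood fit of the 3 groups, two-sided tests, and Benjamini-Hochberg adjustment over all 14303 tested genes; called means an adjusted p under 0.05. DESeq2 1.42.0 was an alternative. Exon lengths came from GENCODE M21. Named genes are the 10 genes, per list and comparison up to 4 called genes or else the 2 of smallest p, the 5 most like Tnip1, Tnfaip3 and Nfkbia, genes beside or overlapping them, and Mpst; list genes called by DESeq2 alone were named after their values were seen. The genes and lists were chosen with earlier results of these data known. Precision is limited by counts and by 3 or 4 libraries a group.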

Additional observations from a re-analysis of the deposited data

How the results depend on the processing

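Over 19 alternatives, Tnip1 kept its direction in all 3 comparisons. Against treated wild-type aorta its log2 fold change ran from 1.03 to 1.18, and against chow aorta from 1.16 to 1.37. Counts of the 10 genes called include Tnip1, which was chosen on its knockout level, so in the knockout comparisons they describe the fits and test nothing. Against treated wild-type aorta that count went from 1 to 0 with the replicate block, with the 2 groups compared alone and without both heart-rich treated libraries, and ranged from 0 to 1 without single libraries. It was 0 also without any 1 knockout library, without WT_HFD_LNAME 1, 2 or 3 and without WT_CD 4. It stayed 1 without WT_CD 1, 2 or 3, without WT_HFD_LNAME 4 and without both Rn45s-rich chow libraries. Fits with fewer groups or libraries have fewer degrees of freedom, and the cause of the lost calls was not tested. Against chow aorta DESeq2 gave a count of 2, with Nfkbie added. Between treated and chow wild-type aorta 0 of the 10 were called in any alternative.

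All genes called between treated and chow wild-type aorta numbered 212, and 138 with no filter, 873 with DESeq2, 42 with the replicate block, 31 with the 2 groups alone, 0 without both Rn45s-rich chow libraries, 59 without both heart-rich libraries and 2 to 521 without single libraries. Between knockout and treated wild-type aorta they numbered 2, and 33 with DESeq2, 1 with the replicate block, with the 2 groups alone and without the heart-rich libraries, and 1 to 3 without single libraries. Between knockout and chow aorta they numbered 45, and 29, 555, 13, 3 and 4 with no filter, DESeq2, the replicate block, the 2 groups alone and without the Rn45s-rich libraries, and 4 to 102 without single libraries. The cause was not tested. Same-numbered libraries had deviations from their group mean correlated between -0.23 and 0.59 (median -0.03), with 4 of 10 pairs over 0.1. Other pairs had a median of -0.01. Deviations within such small groups sum to 0, so these values cannot settle whether the replicate numbers pair the libraries.

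Signs turned where values lay near 0. Without single libraries, the differences of treated from chow wild-type aorta ran from -0.10 to 0.45 for Tnfaip3, -0.12 to 0.32 for Nfkbia and -0.0734 to 0.0718 for Nfkb1. Those of knockout aorta ran from -0.0544 to 0.10 for Ikbkb against treated wild-type and from -0.0484 to 0.22 for Rela against chow. Without both Rn45s-rich libraries Nfkb1 was at 0.10 and Rela at 0.0537 in treated against chow wild-type aorta, and Ikbkb at 0.0275 in knockout against chow aorta. Nfkbie and Tnfaip3, with 14 to 100 and 32 to 128 counts per library, had the least depth.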
